A study of Mus musculus with 10 samples.

Results

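The MHC class II genes described here are H2-Aa, H2-Ab1, H2-Eb1, H2-DMa, H2-DMb1, Cd74 and Ciita. They were taken by name as listed genes of class II antigen presentation, through the Ensembl identifiers of the deposited table, and make up 7 of its 22053 genes. All 7 were measured and all 7 passed the filter on low values. RNA-seq libraries of mouse kidney glomeruli, the tufts of capillaries that filter blood, were compared between 2 genotypes of Col4a3, which encodes a type IV collagen chain of the filter's basement membrane. The wild-type group and the group with the p.G799R missense variant, written G799R below, held 5 libraries each, and the labels name no treatment or other allele in either group. Nothing used here gives the mice's zygosity, strain, age or sex or the method that isolated the glomeruli. It is also not stated that each library is a different mouse, so every p-value reflects the variation among these libraries, part of which may be technical.

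Class II molecules present peptides from endocytosed proteins to CD4+ T cells. H2-Aa with H2-Ab1 encodes the alpha and beta chains of I-A, and H2-Eb1 the beta chain of I-E. The invariant chain, encoded by Cd74, fills the groove of a new class II molecule and guides it to endosomes, where proteases trim the chain to a short remnant, and H2-DM, made from H2-DMa and H2-DMb1, exchanges this remnant for other peptides. Ciita is the coactivator that switches the class II genes on together. Dendritic cells, macrophages and B cells carry class II constitutively, and interferon gamma can induce it in other cells, including cells of the kidney.

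The authors deposited FPKM, fragments scaled for transcript length and library total, so levels can be compared between genes. Sums ran from 320720 to 340875 FPKM per library, absolute depth is unknown, and the estimated relative depth lay between 0.863 and 1.19, with wild-type library 1 set to 1. Podocyte markers summed to 2817 to 3362 FPKM in wild type and 4761 to 6447 FPKM in G799R, and none of the 14 was at 0 in any library. Tubule markers, of cells that surround glomeruli, summed to 3339 to 5087 FPKM in wild type and 494 to 1025 FPKM in G799R. Because FPKM is relative, this shift moves with every comparison below, and its part in the class II differences was not tested. In bulk tissue, fewer cells of a type and less RNA per cell cannot be told apart. A missense variant need not alter the Col4a3 mRNA, so its level does not check the labels.

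The class II genes kept the same order of level in 10 of 10 libraries. From the highest FPKM down it was Cd74, H2-Aa, H2-Ab1, H2-Eb1, H2-DMb1, H2-DMa and Ciita. Wild-type means ran from 87.7 FPKM for Cd74 to 1.46 FPKM for Ciita, and G799R means from 175 to 2.59 FPKM. Within each group the ranges of neighbours in this order overlapped, except for H2-DMb1, which was above every H2-DMa value in both groups and below every H2-Eb1 value in G799R.

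The genes of the presenting chains and the invariant chain were about 2-fold higher in G799R. Cd74 (ENSMUSG00000024610; GRCm38, chromosome 18, 60803848 to 60812652, plus strand) stood at 178, 53.0, 102, 38.2 and 67.2 FPKM in wild-type libraries 1 to 5 and at 248, 233, 108, 135 and 152 FPKM in G799R libraries 1 to 5. Wild-type library 1 was above G799R libraries 3, 4 and 5, and the other 4 wild-type libraries were below every G799R library. The means were 87.7 ± 55.9 and 175 ± 61.7 FPKM (SD, n = 5 each), a 2.0-fold rise. The log2 difference was 1.13 ± 0.38 (SE) on the log2(FPKM + 1) scale, on which all log2 differences here are G799R minus wild type, with an adjusted p of 0.0222 by limma with Benjamini-Hochberg adjustment over all tested genes. The call was lost without wild-type library 2 or 4 or G799R library 1 or 2 (log2 differences 0.89 to 1.01, adjusted p 0.0537 to 0.0551).

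**Figure D1:**
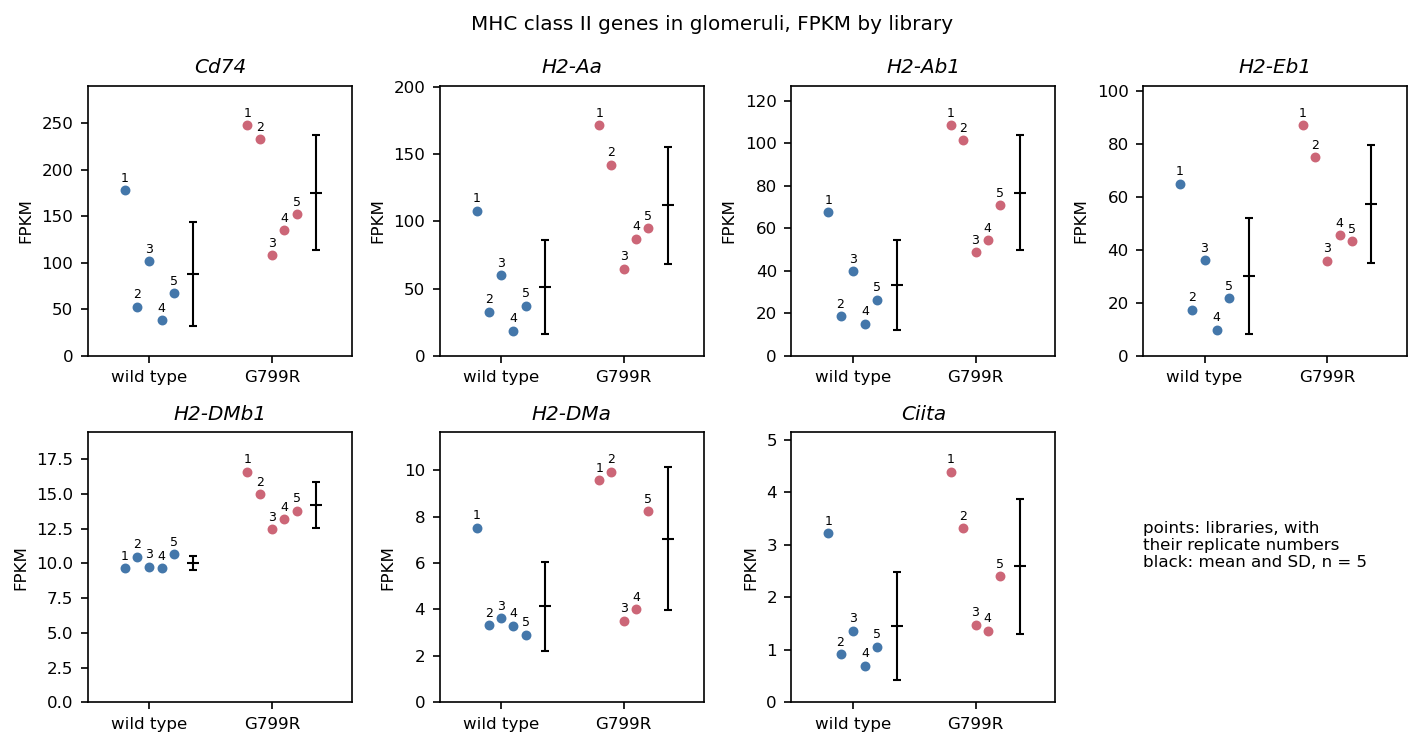
FPKM of each class II gene in the 10 libraries, with a linear axis from 0 in each panel. Points are libraries with their replicate numbers, and black bars show the mean and SD of 5 libraries. Wild-type library 1 stands above the other wild-type libraries in every panel but that of H2-DMb1, where the groups do not overlap, with 9.64 to 10.7 FPKM in wild type and 12.4 to 16.6 FPKM in G799R.

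H2-Aa (ENSMUSG00000036594; chromosome 17, 34282744 to 34287823, minus strand), the I-A alpha chain gene, had 108, 32.9, 59.9, 18.9 and 37.4 FPKM in wild type and 172, 142, 64.8, 87.1 and 94.8 FPKM in G799R. G799R libraries 1 and 2 were above all wild-type libraries, and all 5 were above wild-type libraries 2 to 5. The means of 51.4 ± 34.9 and 112 ± 43.6 FPKM differed 2.18-fold, with a log2 difference of 1.26 ± 0.41 (SE) and a limma adjusted p of 0.0195.

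H2-Ab1 (ENSMUSG00000073421; chromosome 17, 34257689 to 34269419, plus strand), the I-A beta chain gene, had 67.4, 18.8, 39.7, 15.1 and 26.4 FPKM in wild type and 108, 101, 48.7, 54.3 and 70.9 FPKM in G799R. The groups overlapped through wild-type library 1, which G799R libraries 1, 2 and 5 exceeded. The means of 33.5 ± 21.2 and 76.8 ± 27.1 FPKM differed 2.29-fold, with a log2 difference of 1.302 ± 0.37 (SE) and a limma adjusted p of 0.0104.

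H2-Eb1 (ENSMUSG00000060586; chromosome 17, 34305867 to 34316674, plus strand), the I-E beta chain gene, had 64.9, 17.4, 36.2, 9.95 and 21.9 FPKM in wild type and 86.9, 75.0, 35.9, 45.5 and 43.1 FPKM in G799R. Wild-type library 3 was also level with the lowest G799R library here. The means of 30.1 ± 21.7 and 57.3 ± 22.3 FPKM differed 1.90-fold, with a log2 difference of 1.10 ± 0.42 (SE) and a limma adjusted p of 0.0429. H2-Eb1 was the least firm of the 5 calls, since it was lost under median-of-ratios scaling (0.92, adjusted p = 0.0785) and when wild-type library 2, 4 or 5 or G799R library 1, 2, 4 or 5 was left out (0.79 to 1.18). The antisense gene Gm20513 overlaps H2-Eb1, Mir5107 lies in Cd74, and strand use in counting is not given in the sources used here, so reads of such partners cannot be told apart.

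The promoters of these genes are shown because their shared X and Y boxes are where the RFX and NF-Y factors that recruit Ciita bind. RefSeq entries (GRCm38.p6) were found for 4 of the 7 members, H2-Aa, H2-Eb1, H2-DMa and H2-DMb1. The X box core was searched as CTNGNAAC and the Y box as GATTGG, on both strands, in the 250 bases before the annotated start. The capitals below mark their matches, and the last base printed lies next to the start or to the first annotated UTR base. The windows are chr17:34287824-34287983 (minus strand) for H2-Aa, chr17:34305707-34305866 (plus strand) for H2-Eb1 and chr17:34238745-34238902 (plus strand) for H2-Ob, another class II gene described further on.
H2-Aa: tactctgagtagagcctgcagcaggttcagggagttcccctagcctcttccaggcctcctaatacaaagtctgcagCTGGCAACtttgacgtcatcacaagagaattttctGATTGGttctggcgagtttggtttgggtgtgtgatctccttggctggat
H2-Eb1: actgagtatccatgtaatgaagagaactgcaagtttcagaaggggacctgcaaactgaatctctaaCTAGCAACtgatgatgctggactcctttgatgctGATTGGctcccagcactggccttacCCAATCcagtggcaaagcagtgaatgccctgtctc
H2-Ob: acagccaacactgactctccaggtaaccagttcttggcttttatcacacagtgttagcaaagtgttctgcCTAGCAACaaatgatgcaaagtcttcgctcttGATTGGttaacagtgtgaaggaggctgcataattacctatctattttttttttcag

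In H2-Aa the X core began at position −84 and the Y box at −49 from the start, 35 bases further on, and in H2-Eb1 they began at −94 and −60. H2-DMb1 had the same arrangement, at −97 and −62, as did H2-Ob, at −90 and −58. The core and box do not overlap in these promoters, and H2-Eb1 has 1 further Y box match on the other strand. Neither of 2 H2-DMa start sites had the pair in this window. The same held for the entries of H2-Oa, H2-DMb2 and H2-Eb2, class II genes outside the members. The H2-DMa windows end at 34122831 and 34125517, inside the gene's span of 34119541 to 34139101. The first starts just past the end of Brd2, an opposite-strand gene, at 34122634. Starts elsewhere in H2-DMa were not searched. Of 32851 promoter entries of the same length, 10.9% held the X core, 14.6% held the Y box and 0.149% held both on the same strand with 8 to 50 bases between their first bases. The letters were chosen with these promoters in view, so the matches are a description.

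The genes of the peptide exchange factor H2-DM behaved differently from each other in spread. H2-DMb1 (ENSMUSG00000079547; chromosome 17, 34153072 to 34160230, plus strand), its beta chain gene, had 9.67, 10.5, 9.76, 9.64 and 10.7 FPKM in wild type and 16.6, 14.98, 12.4, 13.2 and 13.8 FPKM in G799R. It was the only member of the 7 whose groups did not overlap, and also the only one whose difference turned negative when the level of glomerular markers was set equal in every library (−0.16, limma adjusted p = 0.28). The means of 10.1 ± 0.492 and 14.2 ± 1.63 FPKM differed 1.41-fold, with a log2 difference of 0.45 ± 0.08 (SE) and a limma adjusted p of 6.4e-04. Across all tested genes, 26.1% likewise had a lowest G799R value above the highest wild-type value. H2-DMb1 also varied least within wild type, with a coefficient of variation of 4.90% against 46.1% to 72.2% for the other 6 members and a median of 13.4% over 12293 genes of at least 1 FPKM. The gene H2-DMb2 is a close copy, and how reads shared with it were assigned is not given in the sources used here, so the value of either is uncertain.

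H2-DMa (ENSMUSG00000037649; chromosome 17, 34119541 to 34139101, plus strand), its alpha chain gene, had 7.52, 3.33, 3.62, 3.30 and 2.92 FPKM in wild type and 9.56, 9.93, 3.51, 4.01 and 8.24 FPKM in G799R. Wild-type library 1 and G799R libraries 1, 2 and 5 were high, while G799R libraries 3 and 4 were at the level of the other wild-type libraries. The log2 difference of 0.61 ± 0.29 (SE) was not called (limma adjusted p = 0.0889), but it was without wild-type library 1 (0.81, adjusted p = 0.0216), without G799R library 3 (0.80, adjusted p = 0.0293) or 4 (0.76, adjusted p = 0.0472). The gene overlaps Brd2 on the opposite strand, so its value is uncertain.

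Ciita (ENSMUSG00000022504; chromosome 16, 10480059 to 10528418, plus strand), the coactivator gene, had 3.23, 0.917, 1.37, 0.702 and 1.06 FPKM in wild type and 4.39, 3.31, 1.48, 1.36 and 2.40 FPKM in G799R. Wild-type library 1 and G799R libraries 1 and 2 were the highest of their groups, and G799R libraries 3, 4 and 5 lay within the wild-type range. The means were 1.46 ± 1.02 and 2.59 ± 1.28 FPKM, and the log2 difference of 0.56 ± 0.28 (SE) was not called (limma adjusted p = 0.107). It was called without wild-type library 1 (0.77, adjusted p = 0.0162). Leaving out both G799R library 3 and library 4, the lowest of their group for this gene, also gave a call (0.89, adjusted p = 0.0263). At these low levels the added 1 FPKM understates the change, which was 1.78-fold in mean FPKM. Dexi overlaps Ciita on the opposite strand.

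Across the 7 members, 5 were called higher and 0 lower as deposited, with a median log2 difference of 1.10, while 40.5% of the 13117 tested genes were called higher, 19.3% were called lower and their median was 0.17. Median-of-ratios scaling brought the median of all genes to 0.023 and left 4 members among the 23.3% of genes called higher. With the glomerular score, the mean log2 level of podocyte, endothelial and mesangial markers, set equal in every library, the median of all genes was −0.40 and 4.33% were called higher. None of the 7 members was called then, and their log2 differences ran from 0.65 for H2-Ab1 to −0.16 for H2-DMb1, the only member below 0. With the pan-leukocyte score as a covariate 0 members were called (7.45% of genes were called higher), and 6 of the 7 turned negative, from −0.14 for H2-Ab1 to −0.55 for Ciita, with H2-DMb1 at 0.33. The pan-leukocyte score was 2.14 to 2.92 in wild type and 2.81 to 3.63 in G799R. It thus moved largely with genotype, and this fit separates their parts poorly. With the tubule score as a covariate 0 of all tested genes were called by limma, and 732 had an unadjusted p under 0.05. That score itself separated the groups, at 6.62 to 7.26 in wild type and 4.03 to 5.04 in G799R. The covariate is thus nearly the genotype label, so this fit can hardly tell their parts apart. Without wild-type library 1 all 7 members were called, beside 42.5% of all genes. Without G799R libraries 3 and 4 all 7 were also called, beside 37.1%. Wild-type library 1 was the highest of its group in every member but H2-DMb1. G799R libraries 3 and 4 were the lowest of theirs in every member but H2-Eb1. Leaving such libraries out raises the difference by construction, so these calls are a description. Leaving out 1 other library changed the count to 3 for wild-type library 2 or 4 and for G799R library 1 or 2.

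**Figure D2:**
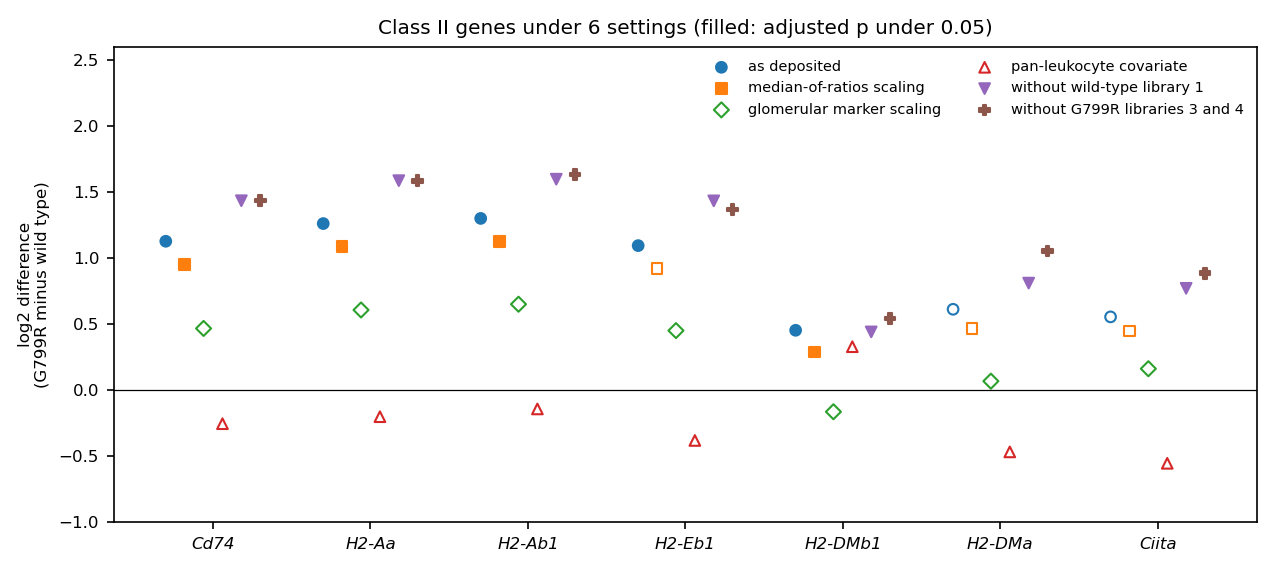
Log2 difference of each class II gene (G799R minus wild type) as deposited and under 5 other settings, with filled symbols where the limma adjusted p was under 0.05. The differences of the chain genes and Cd74 are largest without wild-type library 1 or without G799R libraries 3 and 4 (1.37 to 1.63). Those settings leave out libraries high in wild type or low in G799R, which raises the differences by construction. The same differences are smaller and open under glomerular marker scaling (0.45 to 0.65), and below 0 with the pan-leukocyte score as a covariate.

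Ratios between class II genes of the same library do not depend on scaling. The H2-Aa to H2-Ab1 ratio, alpha to beta chain of I-A, was 0.58 ± 0.18 in wild type and 0.53 ± 0.13 in G799R on the log2 scale (SD, n = 5 each), with an exact two-sided permutation p of 0.62. The Cd74 to H2-Ab1 ratio was 1.40, 1.49, 1.35, 1.33 and 1.35 in wild type and 1.19, 1.20, 1.15, 1.31 and 1.10 in G799R, so every G799R library was below every wild-type library. The means of 1.38 ± 0.0656 and 1.19 ± 0.0784 differed by −0.19, with an exact permutation p of 0.0079, the smallest that 5 against 5 libraries allow. The Ciita to H2-Ab1 ratio was −4.42 ± 0.225 in wild type and −4.90 ± 0.224 in G799R, a difference of −0.48 (exact permutation p = 0.0159). After adjustment over the 27 ratios and differences from marker scores that were computed, both had an adjusted p of 0.21 by the exact permutation test. That is also the smallest adjusted p that a lone measure among 27 can reach with 5 against 5 libraries, so the adjusted test could not call a single ratio whatever its size. The H2-Eb1 to H2-Ab1 ratio differed by −0.20 (exact permutation p = 0.14), H2-DMa to H2-Ab1 by −0.62 (p = 0.0556) and H2-DMa to H2-DMb1 by 0.23 (p = 0.52).

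**Figure D3:**
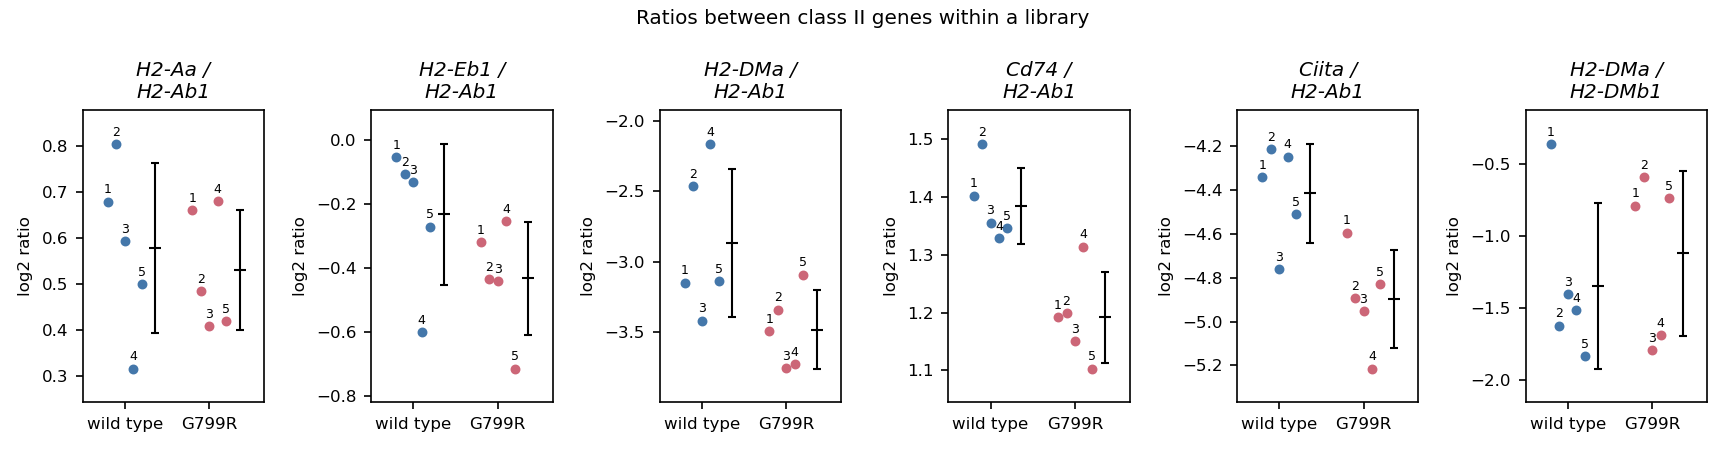
Log2 ratios of FPKM + 0.1 between class II genes within each library. Points are libraries with their replicate numbers, black bars show the mean and SD of 5 libraries, and each panel has its own axis. The groups do not overlap for Cd74 to H2-Ab1, with 1.33 to 1.49 in wild type and 1.10 to 1.31 in G799R.

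The 4 other class II genes of the table were lower in level. H2-Ob, the beta chain gene of H2-O, which restrains H2-DM and is best known from B cells, had 1.90, 1.02, 1.79, 0.839 and 0.912 FPKM in wild type and 2.65, 2.24, 1.38, 1.94 and 2.02 FPKM in G799R. Wild-type libraries 1 and 3 reached into the G799R range. Its log2 difference of 0.42 ± 0.16 (SE) was called (limma adjusted p = 0.0422), was lost under median-of-ratios scaling (0.32, adjusted p = 0.0999) and stood at 0.031 under glomerular marker scaling. H2-Oa, its alpha chain gene, had means of 0.480 and 0.772 FPKM (adjusted p = 0.30), and H2-DMb2 had 1.12 and 1.26 FPKM (adjusted p = 0.71), with neither called by limma. H2-Eb2, a further beta chain gene, was at 0 to 0.322 FPKM and was not tested. H2-Ea was not analysed here.

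Most of these genes lie together on chromosome 17, with H2-Ab1, H2-Aa and H2-Eb1 on the side of H2-Ob away from the H2-DM genes. The window from 208 kb below to 142 kb above the start of H2-Ab1 held all or part of 6 further tested genes, of which 5 were called higher and 0 lower, beside 40.5% called higher among all genes. Between H2-DMb1 and H2-Ob lie Psmb9 and Psmb8, subunits of the immunoproteasome, and Tap1 and Tap2, the peptide transporter of the class I pathway, which differed 7.19-fold, 6.14-fold, 8.24-fold and 2.87-fold. Their log2 differences of 2.46, 2.42, 2.70 and 1.42 were larger in value than those of the 5 class II members on this chromosome, which lie on both sides of them, and the contrast between genes was not tested. Brd2, a bromodomain gene, was 1.37-fold higher, and BC051142 was not called (0.039, limma adjusted p = 0.85).

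**Figure D4:**
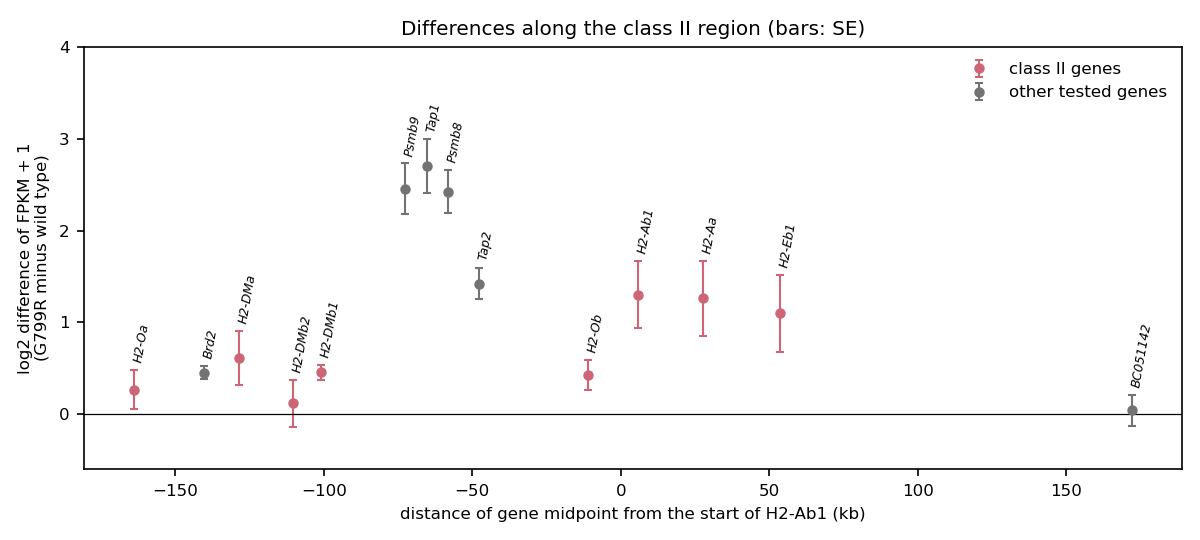
Log2 difference (G799R minus wild type) of tested genes along the class II region of chromosome 17, plotted by the distance of the gene midpoint from the start of H2-Ab1 in kb, with bars for the SE. The 4 genes Psmb9, Tap1, Psmb8 and Tap2 stand at 1.42 to 2.70 between class II genes at 0.12 to 1.302.

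Factors that act on class II promoters shifted with the scaling. Of 13 tested genes of the class II transcription factor list 9 were called higher and 0 lower as deposited (median log2 difference 0.46), beside 40.5% higher among all genes. Median-of-ratios scaling gave 7 higher and 2 lower, beside 23.3% higher among all genes, and glomerular marker scaling gave 4 higher and 6 lower (median −0.13), beside 4.33% higher and 63.4% lower. Rfx5, a subunit of the factor that binds the X box, went from 6.60 ± 0.980 to 9.47 ± 1.41 FPKM (1.43-fold, limma adjusted p = 0.0047), and its log2 difference turned from 0.46 to −0.13 under glomerular marker scaling. Usf1, a factor of a Ciita promoter, was 1.59-fold higher, with a log2 difference of 0.0075 under that scaling. Nlrc5, a relative of Ciita that acts on class I genes, went from 1.46 ± 0.260 to 16.4 ± 9.79 FPKM, an 11.2-fold rise (limma adjusted p = 2.3e-04), and remained at 2.07 under glomerular marker scaling.

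Of 11 tested genes of the interferon gamma axis 10 were called higher and 0 lower (median 1.01), beside 40.5% higher among all genes. Under glomerular marker scaling 7 were higher and 1, Jak2, was lower (median 0.79), beside 4.33% higher and 63.4% lower among all genes. Irf1, an interferon-induced transcription factor that acts on a Ciita promoter, stood at 25.3, 19.0, 20.4, 21.1 and 21.6 FPKM in wild type and 47.6, 80.1, 97.2, 75.9 and 52.4 FPKM in G799R. The groups did not overlap, and G799R library 3 was the highest, whereas it was the lowest G799R library in each class II member but Ciita, where library 4 was lowest. The 3.29-fold rise had a log2 difference of 1.63 ± 0.17 (SE; limma adjusted p = 2.1e-05), and 0.98 under glomerular marker scaling. Gbp2, a GTPase induced by interferon, was 6.80-fold higher and the kinase gene Jak1 1.43-fold higher. Under glomerular marker scaling Jak1 stood at −0.15, the kinase gene Jak2 at −0.31 and the receptor chain gene Ifngr2 at −0.12. Ifng, the gene of interferon gamma itself, was listed at 0 in 9 of 10 libraries and at 0.155 FPKM in G799R library 5.

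**Figure D5:**
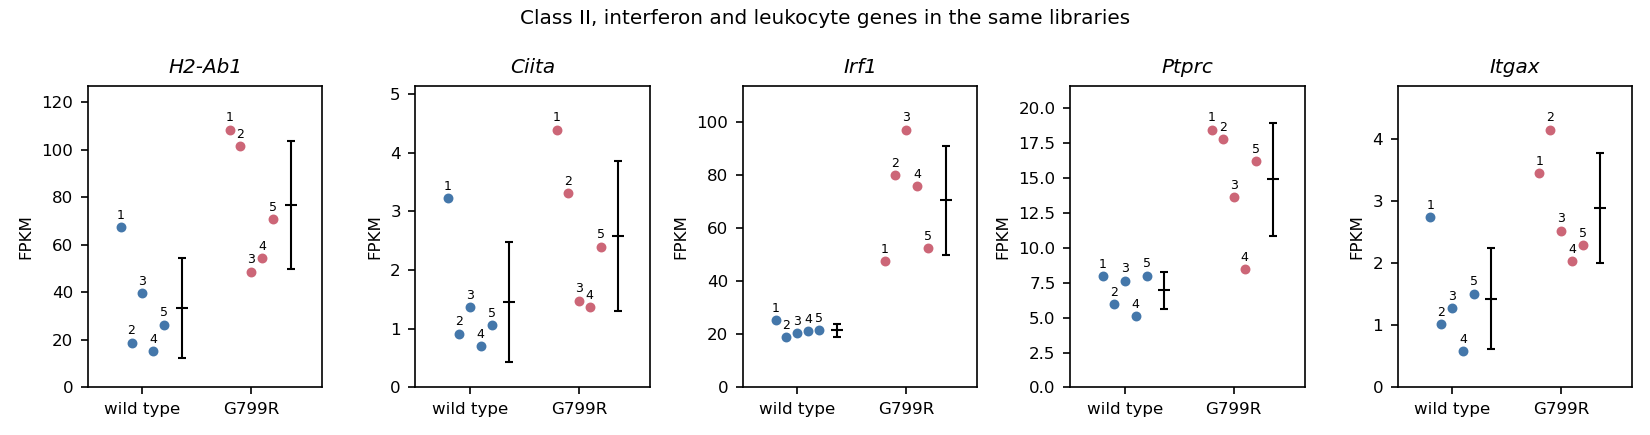
FPKM of H2-Ab1, Ciita, the interferon-induced factor gene Irf1, the leukocyte gene Ptprc and the dendritic cell gene Itgax in the same libraries, with linear axes from 0. Points are libraries with their replicate numbers and black bars show the mean and SD of 5 libraries. G799R library 3 is the lowest of its group in H2-Ab1, at 48.7 FPKM, and the highest in Irf1, at 97.2 FPKM.

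The order of libraries within groups was compared through each gene's deviations from its group means over 10 libraries, as a correlation with the mean of H2-Aa, H2-Ab1, H2-Eb1 and Cd74. It is a description, since libraries share depth and cell makeup. Ciita had a Pearson r of 0.919, H2-DMa 0.776, and H2-DMb1 0.360, which 5126 of 12293 genes exceeded. Among the other class II genes r was 0.915 for H2-Ob, 0.792 for H2-DMb2, 0.672 for H2-Oa and 0.143 for H2-Eb2. H2-Oa and H2-Eb2 averaged under 1 FPKM. Over genes of at least 1 FPKM the median r was 0.689 for 10 pan-leukocyte markers, 0.709 for 16 macrophage markers, 0.618 for 6 dendritic cell markers and −0.057 for 8 genes of the interferon gamma axis, beside 0.248 over all 12293 genes. Members of a list differed, since dendritic cell markers ran from −0.324 for Cadm1 to 0.896 for Itgax, and the interferon gamma axis held Irf1 at −0.083, Jak2 at 0.726, Ifngr2 at 0.743 and Jak1 at 0.802. The 5 genes outside the class II members with the highest r were Hnrnpu (0.975), Hnrnpul1 (0.971), Haus5 (0.968), Sf3b1 (0.966) and Atrx (0.962), none of which is a gene of antigen presentation. Ciita ranked below 56 genes by this measure.

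Proteases and other genes of antigen processing went in both directions. Of 13 tested genes 6 rose and 5 fell (median log2 difference 0.12), beside 40.5% higher and 19.3% lower among all genes. Under glomerular marker scaling 1 was higher and 9 lower (median −0.52), beside 4.33% higher and 63.4% lower among all genes. Ctss, the protease that performs the last trimming of the invariant chain in dendritic and B cells, went from 9.71 ± 4.36 to 32.0 ± 5.97 FPKM (3.29-fold, limma adjusted p = 2.2e-04) and was the gene still called higher under that scaling, at 1.09. Ctsl, which does so in thymic epithelium, was 1.83-fold higher at 458 FPKM, with a log2 difference of 0.20 under that scaling. Lgmn, an asparaginyl endopeptidase, fell from 207 ± 35.4 to 66.1 ± 6.99 FPKM (log2 difference −1.62, limma adjusted p = 2.2e-06). Cd63, a tetraspanin of late endosomes, and the protease gene Ctsh fell by 1.26 and 0.86 on the log2 scale. Ifi30, a thiol reductase of lysosomes, fell by 0.36 (limma adjusted p = 0.0234). The tubule markers, which summed to less in every G799R library, moved with these falls, and their part in them was not tested.

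Genes of class II turnover and costimulation, which set how long class II stays at the surface and what signals go with it, included 4 that rose and 1 that fell of 7 tested (median 0.44), and 2 higher and 1 lower under glomerular marker scaling (median 0.12). Among all genes 40.5% were called higher and 19.3% lower as deposited, and 4.33% higher and 63.4% lower under that scaling. Cd274, which encodes the inhibitory ligand PD-L1, was 6.70-fold higher, Icosl, a costimulatory ligand, 2.08-fold higher, and the costimulatory ligand Cd86 2.43-fold higher at a mean of 0.794 FPKM, not called under that scaling (0.24). The fourth riser, Cd40, chosen after its values were seen, was 1.55-fold higher, with a log2 difference of 0.0014 under glomerular marker scaling. March8, a ubiquitin ligase that removes class II and other proteins from the surface, fell by 0.36 on the log2 scale. Of the surface partners of the invariant chain, Mif, its ligand, fell from 83.8 ± 16.8 to 29.4 ± 6.04 FPKM and Cd44, its coreceptor, rose 2.03-fold (limma adjusted p = 0.0276), a call lost under median-of-ratios scaling. The chemokine receptor genes Cxcr4 and Cxcr2 were not called by limma (adjusted p = 0.16 and 0.23).

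Markers of cells that carry class II were measured beside it. Among all tested genes 40.5% were called higher and 19.3% lower as deposited, and 4.33% higher and 63.4% lower under glomerular marker scaling. The 10 pan-leukocyte markers summed to 38.4 to 77.3 FPKM in wild type and 79.4 to 142 FPKM in G799R, and 8 rose and 0 fell (median 0.98), with 4 higher and 1 lower under glomerular marker scaling. Ptprc, the common leukocyte phosphatase CD45, and Laptm5 were 2.15-fold and 2.54-fold higher, with Ptprc not called under that scaling (0.37). The 16 macrophage markers summed to 132 to 214 and 269 to 372 FPKM, and 9 rose and 0 fell (median 0.85), with 4 higher and 0 lower under that scaling. Adgre1 and Csf1r, receptors that mark macrophages, were not called by limma (adjusted p = 0.42 and 0.11).

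Dendritic cell markers summed to 86.7 to 121.5 FPKM in wild type and 127 to 141 FPKM in G799R, and of 9 tested 3 rose and 2 fell (median 0.13), with 0 higher and 4 lower under glomerular marker scaling. Sirpa and Zbtb46, named after their values were seen, made up most of these sums. Their means were 66.3 and 16.5 FPKM in wild type and 87.3 and 30.6 FPKM in G799R. The 2 that fell were Cd209a and Cadm1. Xcr1, Cd209a and Batf3 were at 0 in some library. Itgax, the integrin CD11c, went from 1.43 ± 0.816 to 2.89 ± 0.885 FPKM (limma adjusted p = 0.0163), a call lost under glomerular marker scaling (0.30), and Flt3, a growth factor receptor of dendritic cells, was at 0.237 and 0.433 FPKM and was not tested. In wild-type library 1 Mgl2, Clec10a and Cd209a, lectin genes chosen after their values were seen, were highest of all 10 libraries, at 9.60, 1.86 and 2.78 FPKM. B cell markers summed to 4.99 to 10.1 and 4.54 to 9.94 FPKM, and of 3 tested 0 rose and 1, Cd79a, fell (−0.63, limma adjusted p = 0.0037), while Cd79b was not called (adjusted p = 0.70). T and NK cell markers summed to 3.52 to 5.77 and 5.16 to 14.8 FPKM and 1 of 6 tested rose, the granzyme gene Gzmb, named after its values were seen. Cd3g, a T cell receptor subunit, was not called (limma adjusted p = 0.71), and Cd3e was not tested. Beyond the pan-leukocyte covariate given above and the score comparisons that follow, the part of these markers in the class II differences was not tested.

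Each member was set against marker scores of its own library, as its log2 level minus the mean log2 level of the markers. Relative to the macrophage score, H2-Ab1 differed by 0.46, H2-Aa by 0.42, Cd74 by 0.28, H2-Eb1 by 0.25, H2-DMa by −0.23, Ciita by −0.29 and H2-DMb1 by −0.39 between genotypes. Relative to the pan-leukocyte score the differences ran from 0.45 for H2-Ab1 to −0.40 for H2-DMb1, and relative to the glomerular score from 0.65 for H2-Ab1 to −0.20 for H2-DMb1. Each difference had an exact permutation p of at least 0.0873 before adjustment and 0.37 after it, so none was told apart from the spread between libraries. With dendritic cell markers in place of macrophage markers, the differences of H2-DMa, H2-DMb1 and Ciita turned positive, at 0.56, 0.41 and 0.51. The mean dendritic cell score hardly moved, from 1.61 in wild type to 1.66 in G799R, while the macrophage score rose from 2.49 to 3.34. Under that swap each member thus stayed near its own log2 difference, 1.10 to 1.302 for the chain genes and Cd74. Among all alternatives, the adjusted exact permutation p of the macrophage comparisons was 0.0857 at its lowest, for H2-Aa, H2-Ab1 and H2-DMb1. These differences thus depend on the marker list.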

How the data were processed

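RNA-seq of kidney glomeruli in 10 libraries was grouped by genotype label. The authors deposited 1 table of FPKM values for 22053 Ensembl identifiers, and 0 columns belonged to other samples. The tools listed, per the submitters' processing notes, are RSEM, HISAT2, StringTie 1.3.1, fastp 0.18.0 and Bowtie2 2.2.8, without roles or order, and the genome build is not given in the sources used here. Symbols were found for 21963 identifiers, and positions are those of GENCODE M21 (GRCm38), which may differ from the authors' build.

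On log2(FPKM + 1), limma-trend (limma 3.58.1, R 4.3.3) was fitted to the 13117 genes averaging 0.5 FPKM or more, two-sided, and p-values were adjusted by Benjamini-Hochberg and called under 0.05. Folds are ratios of mean FPKM. Ratios (FPKM + 0.1) and score differences were compared by exact two-sided permutation of the group labels (252 arrangements), adjusted over 27 measures. Scripts were tested on simulated data. The class II genes and the gene lists were chosen with earlier results of these data known. The text names all members and other class II genes, up to 4 genes of each pathway list with the smallest p plus Irf1, Rfx5, Ifng, Ctss, Ctsl, Lgmn and Ifi30, and the leading pair of each immune marker list, apart from genes not reported here. Region genes were named for their place. Alternatives were pseudocounts of 0.1 and 0.5, no filter or one of 2 FPKM, median-of-ratios, quantile and glomerular marker scaling, tubule or pan-leukocyte covariates, a replicate block, other limma settings, and left-out libraries. Applying them to the gene lists was added after seeing the data.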

Additional observations from a re-analysis of the deposited data

Results flagged for a closer look

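Among 76 groups of 5 libraries examined, 4 held a library whose gap to its nearest neighbour took up most of the group's range, while chance marks about 1 in 20 groups. All 4 were wild-type library 1, and 3 of them were FPKM levels of class II genes. H2-DMa stood at 7.52 FPKM there and at 2.92 to 3.62 FPKM in the other wild-type libraries. Ciita stood at 3.23 FPKM against 0.702 to 1.37 FPKM, and H2-Oa at 1.29 FPKM against 0.151 to 0.377 FPKM. Relative to the glomerular score, Ciita was at −4.31 on the log2 scale in that library and at −5.12 to −5.00 in the others. The pan-leukocyte score of wild-type library 1 was also the highest of its group, at 2.92 against 2.14 to 2.65. Its glomerular score was likewise the highest, at 6.39 against 5.82 to 6.24, and its tubule score the lowest, at 6.62 against 7.0 to 7.26. The part of these scores in the values was not tested.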

How the results depend on the processing

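Under glomerular marker scaling H2-Aa, H2-Ab1, H2-Eb1 and Cd74 were no longer called (0.61, 0.65, 0.45 and 0.47) and H2-DMb1 turned to −0.16, with 0 members called and 568 genes higher and 8318 lower in all. With the tubule covariate H2-Aa, H2-Ab1, H2-Eb1, H2-DMb1 and Cd74 stood at 0.42, 0.83, 0.30, 0.88 and 0.44, with 0 members and 0 genes called (732 at an unadjusted p under 0.05). The tubule score did not overlap between the groups, so that fit can hardly tell its part from that of genotype. With the pan-leukocyte covariate H2-Aa, H2-Ab1, H2-Eb1, H2-DMa, Cd74 and Ciita turned to −0.20, −0.14, −0.38, −0.47, −0.25 and −0.55, H2-DMb1 stood at 0.33, 0 members were called, and 977 genes were higher and 1370 lower. The pan-leukocyte score overlapped little between the groups, so that fit also separates its part from that of genotype poorly. Median-of-ratios scaling called 3055 genes higher. H2-Eb1 was also lost under that scaling (0.92), under quantile normalisation (1.002) and with no filter (1.10, adjusted p = 0.0692 by limma). Without G799R libraries 3 and 4, the lowest of their group for both genes, H2-DMa (1.06) and Ciita (0.89) were called. The cause of these changes was not tested.

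Leaving out 1 library gave 3 to 7 members called and 4614 to 5580 genes higher and 2396 to 2585 lower. The log2 differences ran from 0.97 to 1.59 for H2-Aa, 1.08 to 1.60 for H2-Ab1, 0.79 to 1.44 for H2-Eb1, 0.48 to 0.81 for H2-DMa, 0.40 to 0.50 for H2-DMb1, 0.89 to 1.44 for Cd74 and 0.39 to 0.77 for Ciita, and Cd74 lost its call without wild-type library 2 or 4 or G799R library 1 or 2. The H2-Aa to H2-Ab1 ratio ran from −0.11 to 0.0086, and relative to the glomerular score H2-DMa ran from −0.18 to 0.15 and Ciita from −0.28 to 0.059. Relative to that score, H2-DMa and Ciita were at 0.060 and 0.19 with a pseudocount of 0.1, and at 0.44 and 0.27 without G799R libraries 3 and 4. Without those libraries H2-DMa was at 0.010 relative to the macrophage score. With dendritic markers in place of macrophage markers H2-DMa, H2-DMb1 and Ciita were at 0.56, 0.41 and 0.51. These were the members that changed sign, and the dendritic cell score itself hardly moved between genotypes.

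With the replicate number as a block all 7 members were called, among 4937 genes higher and 2451 lower, with H2-DMa at 0.61 (limma adjusted p = 0.0473) and Ciita at 0.56 (adjusted p = 0.0238). Libraries of the same number did not deviate together (correlations −0.085 to 0.048, none best matched to its own number), so the numbers were not taken as pairs. Depth is known only in relative terms, which limits the lowest members, Ciita and H2-DMa.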
